A study of Mus musculus with 10 samples.

Results

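The sirtuins and the enzymes that rebuild NAD from its breakdown product were followed in left ventricles of mice modeling HFpEF, the form of heart failure in which the ejection fraction is preserved. The set holds 10 genes, the 7 sirtuins Sirt1 to Sirt7 and 3 genes of NAD salvage, Nampt, Nmrk2 and Nmnat3, found by their symbols among 29564 genes listed. Of these 10 genes, 9 entered the test between groups, and Sirt5 was listed at 0 in every mouse. Polyadenylated RNA was sequenced from 5 control mice (TT-583 to TT-587) and 5 HFD+mTAC mice (from TT-588 to TT-592). All mice were males, labelled WT and C57BL6 (C57BL/6J in the methods), and all carry the treatment label vehicle. The labels describe the vehicle as DMSO, PEG-300 and water at 10 mL/kg daily for 6 to 9 weeks, in words that speak of HFD+mTAC mice only, so that dose and duration are not certain for control mice. HFD+mTAC mice received a high-fat diet and moderate transverse aortic constriction, a surgical narrowing of the aorta that raises the pressure load on the left ventricle. Control mice are labelled non-failing and, in the study's methods, stayed on chow without surgery. Diet and surgery came together in these mice, so their separate effects cannot be told apart, and in whole tissue a change in the number of cells of a type cannot be told apart from a change of RNA per cell.

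Sirtuins are enzymes that remove acetyl and other acyl groups from lysines and use up NAD in each reaction, which releases nicotinamide. Nampt turns nicotinamide back into nicotinamide mononucleotide, Nmrk2 makes the same intermediate from nicotinamide riboside, and the Nmnat enzymes turn it into NAD. The sirtuins sit in different places: Sirt1, Sirt6 and Sirt7 mainly in the nucleus, Sirt2 mainly in the cytoplasm, and Sirt3, Sirt4 and Sirt5 in mitochondria, which fill much of a heart muscle cell.

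Total estimated counts ranged from 34.2 to 53.7 M per mouse, of which 12.6 to 21.1 M fell on the 13289 genes tested. Cardiomyocyte markers dominated every library, with summed levels of 15929 to 19520 TPM in control mice and 13723 to 16041 TPM in HFD+mTAC mice over 6 genes, and none of the 6 passed an adjusted p under 0.05 in edgeR. The mean log2(TPM + 1) of the 3 atrial markers did not overlap between the groups (0.53 ± 0.13 against 0.35 ± 0.03, SD, n = 5; p = 0.00794 in a two-sided exact permutation test, the lowest value possible for groups of 5), although their summed level was only 0.824 to 2.51 TPM and Sln, a defining atrial gene, was at 0 in at least 5 mice. Summed levels of the 4 adipocyte markers were at most 0.277 TPM, with Plin1 and Cfd at 0 in at least 5 mice. Lists for fibroblasts, endothelial cells, smooth muscle and pericytes, leukocytes and skeletal muscle overlapped between the groups, with exact permutation p-values from 0.397 to 0.960. The cardiomyocyte list overlapped too, at a mean log2(TPM + 1) of 8.69 ± 0.16 in control and 8.49 ± 0.23 in HFD+mTAC mice (SD, n = 5, exact permutation p = 0.167). So did the adipocyte list (exact permutation p = 0.270). Libraries TT-583, TT-584 and TT-592 stood apart from the other 7 by the lowest share of counts on mitochondrially encoded genes (43.8, 44.0 and 46.4% against 49.5 to 52.7%). They also had the shortest mean transcript lengths, but without a gap, as TT-588 (2637 bases) nearly equaled TT-583 (2634 bases). Values without these 3 libraries are given beside the genes that moved most.

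None of the 9 genes tested passed the threshold between HFD+mTAC and control mice, and the values of the 2 groups overlapped for each. On counts divided by the effective library size (CPM), edgeR gave adjusted p-values from 0.787 to 0.991, with 0 genes under an unadjusted p of 0.05 and 0 under an adjusted p of 0.05 in DESeq2. Across all 13289 genes, edgeR called 8 genes, or 0.0602%, at an adjusted p under 0.05, and 8.27% had an unadjusted p under 0.05. DESeq2 called 0.889% of genes, and the groups did not overlap in CPM for 1.96%. In HFD+mTAC mice, 5 of the 9 genes were higher and 4 lower in the fit. Their median log2 fold change was 0.01, beside 0.00134 over all genes tested, and their median absolute log2 fold change was 0.079, beside 0.122. Among the 6 sirtuins tested the largest absolute log2 fold change was 0.10, and the widest of their 95% intervals reached 0.47. These intervals hold for single genes under this fit, without adjustment for the number of genes. With transcript length as an offset in edgeR, the interval ran from -0.84 to 0.59 for Sirt7 and from -0.67 to 0.40 for Sirt3. That of Sirt2 ran from 0.03 to 0.75. Differences beyond the intervals on counts were therefore not excluded, and those inside them remained compatible with the counts under this fit.

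**Figure D1:**
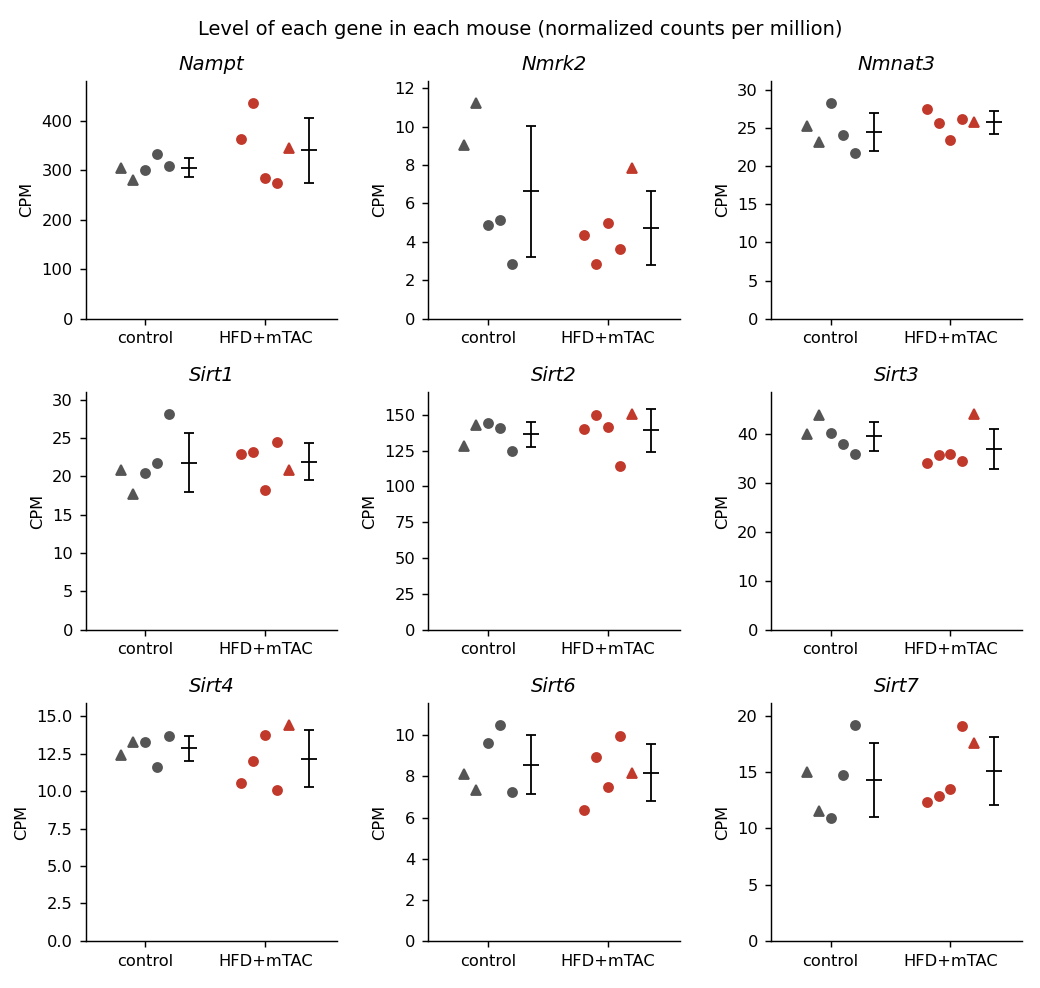
CPM (y axis, linear from 0) of the 9 genes with counts, in 5 control mice (gray) and 5 HFD+mTAC mice (red). Each point is 1 mouse, triangles mark TT-583, TT-584 and TT-592, and bars give the mean ± SD; the groups overlap in every panel, and the triangles are the 3 highest values of Nmrk2.

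Nampt, the rate-limiting enzyme of NAD salvage (chr12:32819545-32853349, plus strand, GRCm38), was the gene of the set with the most counts. Control mice TT-583 to TT-587 had 305, 280, 300.2, 334 and 309 CPM. In the HFD+mTAC group, from TT-588 onward, mice had 363, 437, 284, 275 and 345 CPM. Of the HFD+mTAC mice, 3 lay above the highest control mouse and 1 below the lowest, so that HFD+mTAC mice spread more widely (341 ± 65.8 CPM, SD, n = 5) than control mice (306 ± 19.1 CPM, SD, n = 5). The log2 fold change was 0.16 (standard error, SE, 0.12, 95% interval -0.10 to 0.42, edgeR adjusted p = 0.793), a fold of 1.12 with an interval from 0.931 to 1.34. It was 0.05 without TT-589, the mouse with the highest level.

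Nmrk2, a kinase for nicotinamide riboside known for its expression in skeletal and heart muscle (chr10:81198170-81202051, minus strand, GRCm38), had the largest difference of the set and the widest spread. Control mice had 9.03, 11.3, 4.85, 5.15 and 2.83 CPM, in the order TT-583 to TT-587. HFD+mTAC mice had 4.36, 2.84, 5.00, 3.62 and 7.86 CPM, in the order TT-588 to TT-592. The highest control value was 3.97 times the lowest, a wider range within 1 group than the difference between the group means of 6.62 ± 3.42 and 4.74 ± 1.92 CPM (SD, n = 5). The log2 fold change was -0.49 (SE 0.36, 95% interval -1.28 to 0.29, edgeR unadjusted p = 0.198, adjusted p = 0.787).

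The 3 highest Nmrk2 values belonged to TT-583, TT-584 and TT-592, 2 control mice and 1 HFD+mTAC mouse, the same libraries that stood apart in mitochondrial share. Outside these 3 libraries the gene ranged from 2.83 to 5.15 CPM in control mice and from 2.84 to 5.00 CPM in HFD+mTAC mice. Without them its log2 fold change was -0.12 (edgeR adjusted p = 0.997). Leaving out TT-583 alone gave -0.36, TT-584 alone -0.22, TT-587 alone -0.68, TT-589 alone -0.36 and TT-592 alone -0.76, and none of these passed the threshold (adjusted p from 0.574 to 0.957). With the mean transcript length of each library as a covariate the value was -0.36. Library TT-588 had nearly the same mean transcript length as TT-583 (2637 against 2634 bases) but a mitochondrial share of 49.9% and 4.36 CPM of Nmrk2. What sets these libraries apart was not tested.

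**Figure D2:**
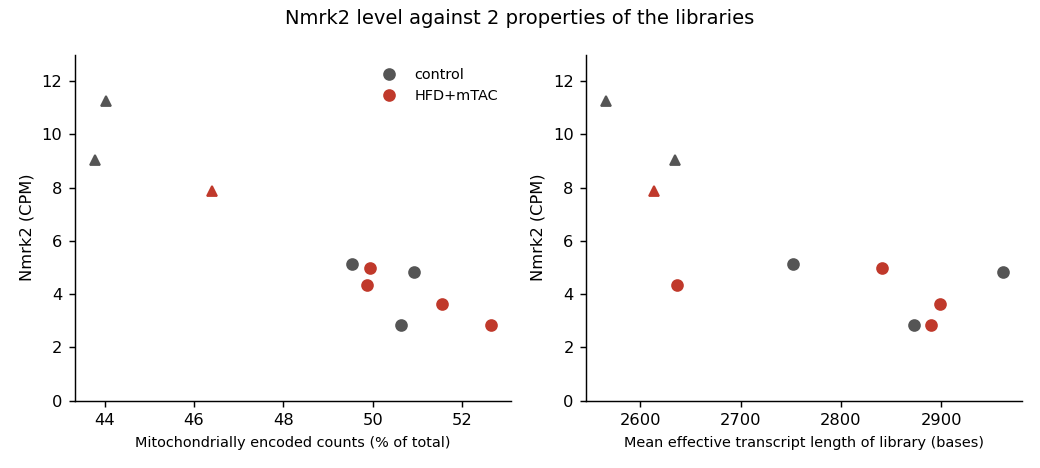
Nmrk2 in CPM (y axis) against the share of counts on mitochondrially encoded genes in percent (left) and the mean effective transcript length of the library in bases (right), with 1 point per mouse, control in gray and HFD+mTAC in red. Triangles are TT-583, TT-584 and TT-592, which lie at 46.4% or less and at 7.86 CPM or more, whereas the other 7 mice lie at 5.15 CPM or less.

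Nmnat3, an adenylyltransferase that makes NAD from nicotinamide mononucleotide and is usually placed in mitochondria (chr9:98287435-98420438, plus strand, GRCm38), was among the steadiest genes of the set. Control mice had 25.2, 23.2, 28.3, 24.1 and 21.7 CPM, and HFD+mTAC mice had 27.6, 25.7, 23.4, 26.2 and 25.9 CPM. All HFD+mTAC values lay inside the range of the control mice. The log2 fold change was 0.07 (SE 0.09, 95% interval -0.14 to 0.28, edgeR adjusted p = 0.910).

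The nuclear sirtuins overlapped throughout. Sirt1, a deacetylase of transcription factors and their coactivators (chr10:63319005-63381704, minus strand, GRCm38), had 20.8, 17.8, 20.4, 21.8 and 28.2 CPM in control mice. In HFD+mTAC mice it had 22.9, 23.2, 18.2, 24.5 and 20.8 CPM, all inside the control range, and the log2 fold change was 0.01 (SE 0.13, 95% interval -0.27 to 0.30, edgeR adjusted p = 0.991). Sirt6, a chromatin deacetylase with roles in DNA repair and metabolism (chr10:81621785-81627797, minus strand, GRCm38), ranged from 7.24 to 10.5 CPM in control mice and from 6.34 to 9.97 CPM in HFD+mTAC mice. Its log2 fold change was -0.07 (SE 0.16). Sirt7, which acts in the nucleolus on transcription of ribosomal RNA genes (chr11:120618372-120625240, minus strand, GRCm38), ranged from 10.9 to 19.2 CPM in control mice and from 12.4 to 19.1 CPM in HFD+mTAC mice. Its log2 fold change was 0.08 (SE 0.18). The adjusted p-values of Sirt6 and Sirt7 were 0.949 and 0.941 in edgeR. Without TT-583, TT-584 and TT-592 the log2 fold change was -0.16 for Sirt6, and it turned to -0.075 for Sirt1 and to -0.043 for Sirt7.

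The mitochondrial sirtuins Sirt3 and Sirt4 were slightly lower on average in HFD+mTAC mice, within the spread of the mice. Sirt3, the main deacetylase of mitochondrial enzymes (chr7:140863666-140882309, minus strand, GRCm38), had 39.9, 43.7, 40.1, 37.9 and 35.9 CPM in control mice. HFD+mTAC mice TT-588 to TT-591 had 34.02, 35.8, 35.9 and 34.5 CPM, and TT-592 had 44.1 CPM, the highest value of all 10 mice. Thus 3 HFD+mTAC mice lay below the lowest control mouse and 1 above the highest. The log2 fold change was -0.10 (SE 0.09, 95% interval -0.30 to 0.10, edgeR adjusted p = 0.844). Sirt4, known for ADP-ribosyltransferase and lipoamidase activity on mitochondrial dehydrogenases (chr5:115478010-115484725, minus strand, GRCm38), ranged from 11.6 to 13.7 CPM in control mice and from 10.1 to 14.4 CPM in HFD+mTAC mice. Its log2 fold change was -0.08 (SE 0.13, edgeR adjusted p = 0.921), and -0.15 without TT-583, TT-584 and TT-592.

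Sirt5, which removes succinyl, malonyl and glutaryl groups in mitochondria (chr13:43365496-43395203, plus strand, GRCm38), was listed at 0 counts and 0 TPM in all 10 mice, and its listed transcript length of 1659 bases did not vary. A listed 0 cannot be read here as absence of the transcript. Cbl and Btbd7, broadly expressed genes named after their values were seen, were also at 0 in all 10 mice. Of 21143 protein-coding genes, 4481 were at 0 in every mouse, and 207 were at 0 in at least 1 mouse while reaching 100 counts or more in another. Clock, a core gene of the circadian clock, was among these, with 0 counts in TT-587 and TT-591 and up to 397 counts in other mice.

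**Figure D3:**
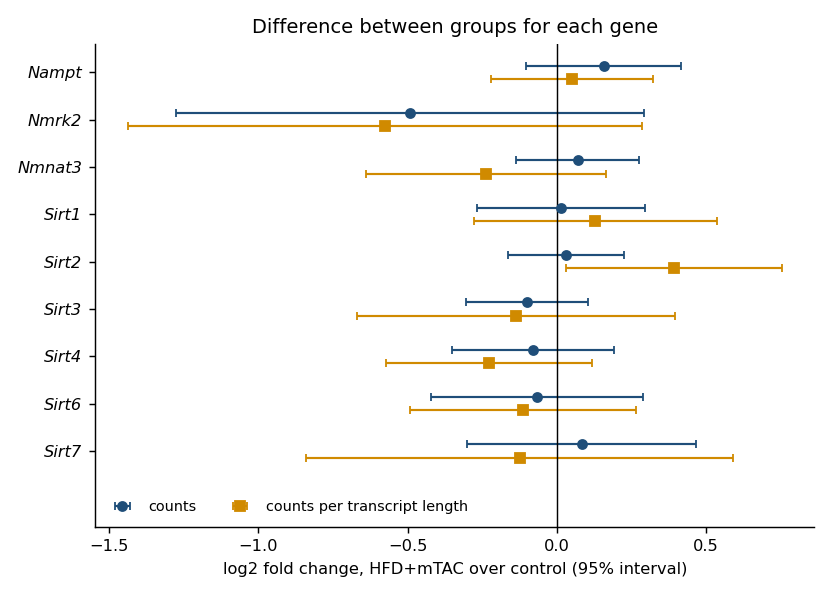
Log2 fold change of HFD+mTAC over control (x axis) with its 95% interval for the 9 genes tested, from edgeR on counts (blue circles) and on counts with transcript length as an offset (orange squares). All intervals on counts include 0; with the length offset the interval of Sirt2, from 0.03 to 0.75, lies above 0, and its adjusted p is 0.652.

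Sirt2, a deacetylase of tubulin and other proteins of the cytoplasm (chr7:28766735-28788661, plus strand, GRCm38), had nearly the same mean count in both groups, with a narrow interval, and a larger difference in TPM. Control mice had 128, 143, 145, 141 and 125 CPM, and HFD+mTAC mice had 140, 150, 141, 114 and 151 CPM. The log2 fold change was 0.03 (SE 0.09, 95% interval -0.16 to 0.22, edgeR adjusted p = 0.959). In TPM, which divides counts by transcript length, control mice had 19.0, 33.7, 17.5, 25.01 and 21.2 and HFD+mTAC mice had 28.9, 28.0, 27.3, 22.3 and 33.7. All 5 HFD+mTAC mice lay above the control median, although the groups overlapped. These are the deposited values. For the test, TPM was first rescaled in each mouse to a common total over the genes tested. The difference in log2(TPM + 1) on these rescaled values was 0.45 (SE 0.15, limma unadjusted p = 0.0114, adjusted p = 0.629). Sirt2 was the only gene of the 9 with an unadjusted p under 0.05 on this scale, where 6.61% of all genes had one, and none of the 9 passed the adjusted threshold.

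The distance between the counts and TPM of Sirt2 lay in its average effective transcript length, which salmon estimates from the mix of transcripts and its models of sequence, GC and position bias. Control mice had 1177, 758, 1213, 792 and 798 bases. HFD+mTAC mice had 746, 694, 691, 709 and 768 bases. TT-583 and TT-585 stood far above the rest, and 4 of 5 HFD+mTAC mice lay below the shortest control value. The difference was -0.36 on the log2 scale (SE 0.15, limma unadjusted p = 0.0332, adjusted p = 0.739), and it ranged from -0.44 without TT-584 to -0.27 without TT-585. All 10 values lay below 1585 bases, the shortest of the 4 coding transcripts of Sirt2 in GENCODE M21. Retained-intron transcripts annotated for the gene measure from 372 to 2114 bases. An effective length is an estimate that includes bias models and an annotated length is the full transcript. They are different measures, so the comparison does not show which transcripts were present. Which transcripts carried the reads was not tested, since values per transcript were not analysed here.

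**Figure D4:**
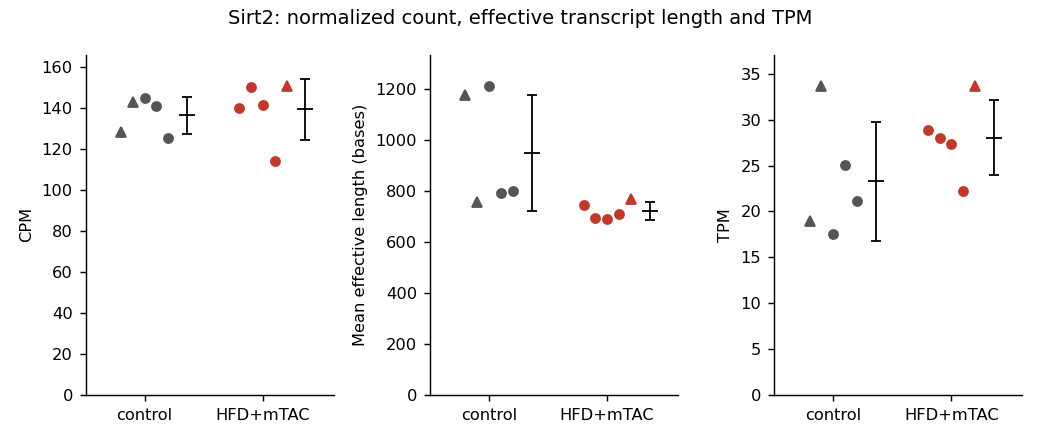
Sirt2 in CPM (left), average effective transcript length in bases (middle) and TPM (right), all linear from 0, with 1 point per mouse, triangles for TT-583, TT-584 and TT-592, and bars for mean ± SD. Lengths of HFD+mTAC mice (red) lie between 691 and 768 bases, and control mice (gray) reach 1213 bases in TT-585.

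Transcript length was read in the same way for all 9 genes. In limma, 0 of 13181 genes, or 0%, passed an adjusted p under 0.05 for length, and 3.53% had an unadjusted p under 0.05. Of the 9 genes, 7 had longer and 2 shorter lengths in HFD+mTAC mice, and Sirt2 was the only 1 with an unadjusted p under 0.05. Nmnat3 came next, with 2181, 2280, 2309, 1581 and 2877 bases in control mice and 2578, 2812, 3167, 2759 and 2439 bases in HFD+mTAC mice. Its difference was 0.31 on the log2 scale (SE 0.15, unadjusted p = 0.0594, adjusted p = 0.739), and it was 0.19 without TT-586, the control mouse with the shortest length. Because of these lengths the log2 fold change of Nmnat3 turned from 0.07 on counts to -0.24 with the length offset (adjusted p = 0.793), and that of Sirt7 from 0.08 to -0.12 (adjusted p = 0.942). For Nampt, Nmrk2 and Sirt6 the effective length exceeded the longest annotated transcript of the gene (4527, 1854 and 1891 bases in GENCODE M21) in all 10 mice, so that these lengths are estimates and not measured transcript sizes.

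Levels were compared between genes in TPM, over all 10 mice. Sirt2 led with a mean of 25.7 TPM, followed by Nampt with 6.97, Sirt3 with 4.38, Nmnat3 with 1.58, Sirt4 with 1.26, Sirt7 with 1.23, Sirt1 with 0.871, Sirt6 with 0.424 and Nmrk2 with 0.349 TPM. Each of the steps from Sirt2 to Nampt, from Nampt to Sirt3, from Sirt3 to Nmnat3 and from Sirt1 to Sirt6 had the same direction in 10 of 10 mice (two-sided exact permutation test by sign flips within mice, p = 0.00195, the smallest of 1024 arrangements; adjusted over the 8 neighbouring pairs 0.00391). Nmnat3 and Sirt4 (adjusted p = 0.0625, same order in 7 of 10 mice), Sirt4 and Sirt7 (0.680, 5 of 10), Sirt7 and Sirt1 (0.0531, 7 of 10) and Sirt6 and Nmrk2 (0.201, 7 of 10) did not differ beyond their spread in these exact permutation tests. Counts gave another order, with Nampt at 323 CPM above Sirt2 at 138 CPM, since the estimated length of Nampt averaged 7016 bases and that of Sirt2 835 bases. In all 10 mice the Nampt length exceeded its longest annotated transcript (4527 bases). That of Sirt2 lay below its shortest coding transcript (1585 bases). A length error shared by all libraries cannot show in the sign-flip test, so the order in TPM holds only under these length estimates. Of the summed TPM of the 6 sirtuins with counts, Sirt2 made up 72.2% ± 6.57 in control mice and 79.2% ± 2.94 in HFD+mTAC mice, and Sirt3 15.0% ± 5.80 and 10.9% ± 2.53 (SD, n = 5). Sirt5, listed at 0, adds nothing to these sums, so the shares are not those of the whole family. They also depend on the length estimates: Sirt2 had 136 and 139 CPM in control and HFD+mTAC mice, at mean lengths of 948 and 721 bases.

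Variation among mice differed between the genes. Over all 10 mice the coefficient of variation of CPM was 8.14% for Nmnat3, 8.45% for Sirt2 and 9.55% for Sirt3, whereas it was 20.5% for Sirt7 and 49.3% for Nmrk2. After removal of the group means, 36 pairs of genes were correlated across the 10 mice in log2 CPM, and none passed an adjusted p under 0.05 by Pearson's r (smallest adjusted p = 0.263) or by Spearman's rho (smallest adjusted p = 0.255), both from exact permutation within groups. The pairs with the largest absolute r, named after their values were seen, were Sirt3 with Nmrk2 and Sirt1 with Nmrk2, and the pair with the largest absolute rho was Sirt1 with Sirt3. Sirt3 and Nmrk2 had r = 0.79 (exact permutation within groups, p = 0.00729, adjusted 0.263) and rho = 0.72 (p = 0.0347, adjusted 0.315), with r = 0.58 without the 2 mice farthest from the median. Sirt1 and Nmrk2 had r = -0.78 (p = 0.0184, adjusted 0.331) and rho = -0.79 (p = 0.0142, adjusted 0.255) by the same exact permutation, with r = -0.48 without the 2 farthest mice. Sirt1 and Sirt3 had rho = -0.82 (p = 0.0084, adjusted 0.255) and r = -0.61 (p = 0.0617, adjusted 0.473) by exact permutation, with r = -0.37 without the 2 farthest mice. The pairs with Nmrk2 share the libraries TT-583, TT-584 and TT-592 at the high end of Nmrk2, and these 3 libraries are too few for a value of their own.

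Promoters of 3 genes are shown, since they differ in the elements they hold: Nampt, the gene with the most counts, Nmrk2, the most variable, and Sirt1. Each sequence runs from 250 bases before to 50 bases after the start of the gene in RefSeq (GRCm38.p6), 5′ to 3′ on the gene's strand. Capitals mark 4 motifs, searched on both strands, with overlapping matches counted separately. The GC box was searched as GGGCGG. The E-box was searched as CACGTG, which reads the same on both strands. The TATA box was searched as TATAAA. The remaining motif was the CCAAT box, searched by these 5 letters.
Nampt: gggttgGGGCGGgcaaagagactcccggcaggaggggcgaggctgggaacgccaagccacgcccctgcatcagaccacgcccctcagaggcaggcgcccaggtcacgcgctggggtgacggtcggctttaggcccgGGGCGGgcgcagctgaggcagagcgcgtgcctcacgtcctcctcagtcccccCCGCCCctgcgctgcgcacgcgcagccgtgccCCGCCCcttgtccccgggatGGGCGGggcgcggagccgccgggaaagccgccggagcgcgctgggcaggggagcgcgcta
Nmrk2: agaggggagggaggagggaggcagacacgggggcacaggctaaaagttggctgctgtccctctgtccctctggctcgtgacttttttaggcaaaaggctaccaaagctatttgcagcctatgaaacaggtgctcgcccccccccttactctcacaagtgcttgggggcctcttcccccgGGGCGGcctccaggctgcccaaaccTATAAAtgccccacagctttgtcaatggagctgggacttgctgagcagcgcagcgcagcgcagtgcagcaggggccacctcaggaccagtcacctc
Sirt1: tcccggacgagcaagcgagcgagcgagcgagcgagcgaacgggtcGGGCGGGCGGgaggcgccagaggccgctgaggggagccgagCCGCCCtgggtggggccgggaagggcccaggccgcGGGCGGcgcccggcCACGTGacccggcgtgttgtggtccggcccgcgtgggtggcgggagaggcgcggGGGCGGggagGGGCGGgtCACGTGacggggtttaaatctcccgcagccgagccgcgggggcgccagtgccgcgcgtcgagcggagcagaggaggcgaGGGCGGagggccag

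The Nampt window (chr12:32820085-32820384, plus strand) held 5 GC boxes and had a GC content of 76.3%, beside a median of 52.7% over 32851 mouse promoters. The Nmrk2 window (chr10:81201988-81202287, minus strand) was the only 1 of the 12 windows of the 10 genes with a TATAAA, a motif in 13.6% of all promoters, and held 1 GC box. The Sirt1 window (chr10:63338986-63339285, minus strand) held 7 GC boxes and 2 copies of CACGTG, the motif that clock and MYC-family factors recognize, which was in 7.15% of all promoters and in no other of the 12 windows. GC boxes were in 35.7% of all promoters and CCAAT in 37.4%. The windows follow gene starts in RefSeq, which can differ from those in GENCODE M21. Those of Nampt and Sirt1 lie inside the gene spans given above. These are matches of letters only, and no binding was measured here.

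Other genes of NAD metabolism and of linked lists were read in the same fit. Of 79 genes reported here 72 were tested, and 0 of these passed an adjusted p under 0.05 in edgeR or DESeq2, with a smallest adjusted p of 0.262 in edgeR. At an unadjusted p under 0.05, 5 were higher and 6 lower (34 higher and 38 lower in all, median log2 fold change -0.02), beside 8.27% of all genes tested. The groups did not overlap in CPM for 3 of the 72, beside 1.96% of all genes. Since the lists were chosen with earlier results of these data known, nothing is concluded from these counts. Of 17 sirtuin substrates and partners, 6 were higher and 11 lower. The fatty acid oxidation enzymes Acadl and Acadvl, both known substrates of Sirt3, had the smallest p-values among those higher in HFD+mTAC mice. Acadl had 1687, 1725, 1851, 1804 and 1600 CPM in control mice and 2163, 2399, 1875, 1817 and 2022 CPM in HFD+mTAC mice, and the groups overlapped (log2 fold change 0.25, SE 0.09, unadjusted p = 0.0197, edgeR adjusted p = 0.478). Acadvl had a log2 fold change of 0.29 (unadjusted p = 0.0199, adjusted p = 0.478). The kinase gene Stk11 had -0.17 and the transcription factor gene Foxo1 -0.10, with adjusted p-values of 0.7998 and 0.854.

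In NAD synthesis outside the set, 2 genes were higher and 6 lower, none past the threshold. Naprt, which starts NAD synthesis from nicotinic acid, had 10.8 ± 2.71 CPM in control mice and 6.68 ± 1.67 CPM in HFD+mTAC mice (SD, n = 5; log2 fold change -0.69, edgeR unadjusted p = 0.00718, adjusted p = 0.370), and the groups overlapped. Nt5e, which degrades nucleotides outside the cell, had a log2 fold change of -0.16 and Slc25a51, the mitochondrial NAD carrier, 0.05. Nadsyn1, which amidates the last intermediate, had 0.10 on counts and 1.23 with the length offset (unadjusted p = 0.0119, adjusted p = 0.610), as its effective length averaged 1681 bases in control mice and 681 bases in HFD+mTAC mice. Of the kynurenine pathway, which makes NAD from tryptophan, 5 of 8 genes were tested. Kmo did not overlap between the groups (0.79 to 1.39 CPM in control mice, 0.18 to 0.55 CPM in HFD+mTAC mice), at a low level and with an adjusted p of 0.262 (log2 fold change -1.39). Ido1 had -0.42, Ido2 0.80 and Afmid 0.19, with adjusted p-values from 0.853 to 0.916. Both genes of nicotinamide clearance were higher on average, Aox1 with a log2 fold change of 0.25 (unadjusted p = 0.0478, adjusted p = 0.60) and Nnmt with 0.40 (adjusted p = 0.754).

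Of the 12 NAD consumers outside the sirtuins that were tested, 7 were higher and 5 lower, with 0 genes at an unadjusted p under 0.05 and 0 called by DESeq2. Sarm1, an NAD hydrolase known from axon degeneration, had a log2 fold change of 0.58 at 0.376 and 0.570 CPM, and the poly(ADP-ribose) polymerase genes Tnks, Parp3 and Parp2 had 0.09, -0.15 and -0.13. Parp3 turned to 0.22 with the length offset (unadjusted p = 0.0364, adjusted p = 0.652). Its lengths did not overlap between the groups, with means of 1452 bases in control mice and 1147 bases in HFD+mTAC mice. The share of all genes without overlap in length was not computed. In NADPH formation, Nnt, the transhydrogenase of the inner mitochondrial membrane, had 594 and 599 CPM in TT-583 and TT-584 and 1002 to 1581 CPM in the other 8 mice (log2 fold change 0.26, adjusted p = 0.866), and Nadk and Nadk2 had 0.05 and -0.02.

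Of 11 genes of the NADH shuttles and lactate dehydrogenase, 9 were lower. Ldhb, the main heart subunit of lactate dehydrogenase, had 1553 to 1792 CPM in control mice and 1223 to 1540 CPM in HFD+mTAC mice, without overlap (log2 fold change -0.26, unadjusted p = 0.0101, adjusted p = 0.410). Ldha, the other main subunit, overlapped between the groups (log2 fold change -1.15, adjusted p = 0.440). With the length offset its value turned to 0.16 (adjusted p = 0.909), as its effective length averaged 661 bases in control mice and 254 bases in HFD+mTAC mice. The glycerol phosphate dehydrogenase genes Gpd1 and Gpd2 had 0.24 and 0.10. Of 14 circadian clock genes tested, 11 were higher and 3 lower, none past the threshold. Tef did not overlap, with 88.3 to 198 CPM in control mice and 203 to 233 CPM in HFD+mTAC mice (log2 fold change 0.56, adjusted p = 0.433), and its value was 1.82 with the length offset (adjusted p = 0.558). Per2 had 0.75 (adjusted p = 0.442), Npas2 -0.91 (0.530) and Bhlhe40 -0.37 (0.542). TT-583 and TT-584 held the lowest Tef and Per2 values and the highest Npas2 values of the 10 mice. Without TT-583, TT-584 and TT-592 the log2 fold change was -0.14 for Npas2, 0.25 for Tef and 0.45 for Per2. Other clock genes, named after their values were seen, moved too in that fit. Per1 turned to -0.04, Nr1d2 to -0.06, Ciart to -0.53 and Bhlhe41 to -0.08. Per3 fell from 0.60 to 0.05 and Dbp from 0.70 to 0.08. The remaining clock genes kept their direction. Fewer genes of this list were thus higher in that fit, and the reason was not tested. The labels do not give the time of day at which tissue was taken.

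Over the 72 linked genes, 12 changed sign with the length offset and 13 without TT-583, TT-584 and TT-592, and 0 were called in either fit by edgeR. Of the genes named outside the clock list, Nnt turned to -0.14 and Nadsyn1 to -0.15 without these libraries. Ldha moved to -0.71, Ido2 and Afmid to 0.07 each, Nnmt to 0.66 and Sarm1 to 0.91. Of those near 0, Slc25a51 moved to 0.11, Nadk to 0.14, Nadk2 to -0.11, Tnks to 0.04 and Foxo1 to -0.03. With the length offset Ido2 moved to 1.53, Afmid to 0.67 and Nadk2 to -0.35, and Tnks and Gpd2 turned to -0.02 and -0.0097.

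**Figure D5:**
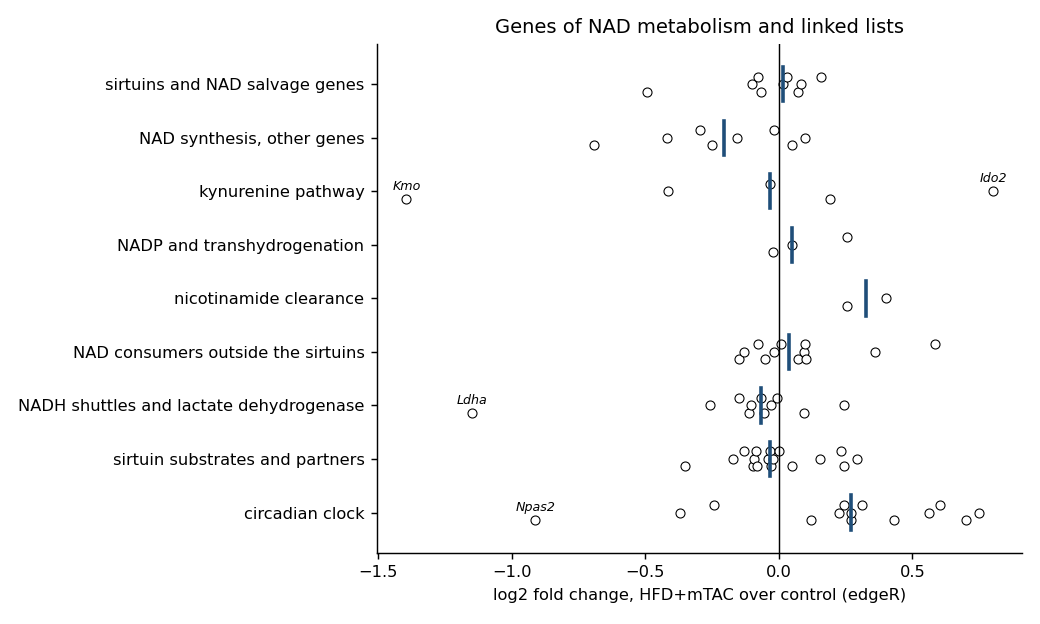
Log2 fold change of HFD+mTAC over control (x axis, edgeR) of each gene tested, by list; each open circle is 1 gene, and the blue bar is the median of the list. None of the genes shown had an adjusted p under 0.05, and names are given where the absolute value exceeds 0.75.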

How the data were processed

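Left ventricular RNA of 10 mice, 5 per group by their labels, was analyzed. Per the study's methods, the authors made stranded mRNA libraries, trimmed reads with fastp, quantified them with salmon (version 1.6.0 per the labels) with sequence, GC and position bias models on GENCODE transcripts of GRCm38, and summed them with tximport. The labels name hg38 as the build, which is human, and their read layout differs from that in the methods. The authors deposited estimated counts per gene without normalization, TPM values scaled within mice, and for each gene an average effective length in bases. TPM columns sum to 94.8 to 96.6% of their nominal total over the genes listed.

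Counts were rounded and tested with edgeR 4.0.16 in R 4.3.3 (TMM, quasi-likelihood, two-sided, Benjamini-Hochberg over all genes tested, adjusted p under 0.05, common dispersion 0.0422). The filter required a protein-coding gene outside the mitochondrial genome that had 1 count or more in 9 of 10 mice. TPM, with a pseudocount of 1, and log2 length were tested with limma 3.58.1. Before each limma test of TPM, the values of each mouse were rescaled to a common total over the genes tested. Levels printed in TPM and the order of levels use the deposited values. Fold changes of TPM are on the log2(TPM + 1) scale. Gene coordinates and transcripts come from GENCODE M21, an older release than the methods name; 27812 symbols matched, 850 through older symbols and 902 did not match.

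All 10 genes of the set are named, and from each list the 2 genes with the smallest unadjusted p in each direction. The genes and lists were chosen with earlier results of these data known. An item that the lists would hold is not reported here, and the counts of the lists leave it out. Intervals are 95%. On simulated data for this comparison over 13289 genes, edgeR called 60 of 100 genes with a log2 change of 1, 13 of 100 with a log2 change of 0.5, and 3 of 13089 unchanged genes; DESeq2 1.42.0 called 66, 33 and 24. Alternatives were other normalizations, filters, tools and biotypes, length offsets, and leaving out each mouse. The length covariate and the omission of 3 libraries were chosen after seeing the data. The labels name separate mice as the samples and give no batch.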

Additional observations from a re-analysis of the deposited data

Results flagged for a closer look

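Dixon's test was applied to each gene of the set in each group, in CPM, TPM and transcript length (54 groups of 5 mice), and 2 samples lay far from the others of their group, where chance flags about 1 group in 20 (5%). Sirt3 had 44.1 CPM in HFD+mTAC mouse TT-592, and the nearest HFD+mTAC mouse had 35.9 CPM. Sirt1 had 1.32 TPM in HFD+mTAC mouse TT-588, and the nearest had 0.834 TPM; its effective length there was 2684 bases, against 3752 to 4283 bases in the other HFD+mTAC mice, and its CPM of 22.9 lay within their range.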

How the results depend on the processing

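Under all 22 alternatives 0 genes of the set and 0 of the linked genes reported here were called, and over the alternatives run for transcript length, 0 genes of the set were called. Of 198 values of single genes, 178 kept their direction. Sirt3, Sirt4, Nampt and Nmrk2 kept theirs in all 22 alternatives, Nmrk2 from -0.76 to -0.12 and Nampt from 0.05 to 0.22. The alternatives on TPM used values rescaled over the genes tested. In the deposited TPM, Nampt was lower on average in HFD+mTAC mice (6.77) than in control mice (7.16). The log2 fold change changed sign with TPM and a pseudocount of 1 for Sirt7 (-0.052) and Nmnat3 (-0.16), with a pseudocount of 0.1 for Sirt7 (-0.057) and Nmnat3 (-0.17), with the length offset for Sirt7 (-0.12) and Nmnat3 (-0.24), and without the 3 libraries of shortest mean length for Sirt1 (-0.075), Sirt2 (-0.0052) and Sirt7 (-0.043). With 1 mouse left out, values of both signs were found for Sirt1 (-0.052 to 0.12), Sirt2 (-0.0036 to 0.092), Sirt6 (-0.15 to 0.016) and Sirt7 (-0.015 to 0.21). Over all genes tested, the 8 calls became 118 with DESeq2, 1 with limma at either pseudocount, 1 with the length offset, 5 with the library length covariate, 2 without the 3 libraries, and 1 to 9 with 1 mouse left out. The order of levels had 4 steps past the threshold over 10 mice and 0 in control mice alone, where 5 mice cannot give a p below 0.0625. The cause of these changes was not tested. No paired analysis was possible because the groups are separate mice and the labels give no pairing.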
